A study of Danio rerio and Xenopus laevis and Xenopus tropicalis with 8 samples.

Results

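Mesoderm, the germ layer that gives rise to muscle, blood, skeleton and notochord, is specified at the margin of the zebrafish embryo around the onset of gastrulation. The genes described here are 8 transcription factors that act at that time. They were listed by name from the 32520 genes counted in the single-cell library, and not by a cutoff on their measured values. Earlier results of these data were known when they were listed. tbxta (Brachyury, or no tail) and tbx16 (spadetail) are T-box factors, msgn1 (Mesogenin 1), mespaa and mespab are basic helix-loop-helix factors, and noto (floating head), eve1 and cdx4 are homeobox factors.

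As background, Nodal, FGF and Wnt signals from the margin switch on tbxta and tbx16. In the mesoderm that flanks the midline, tbx16 and msgn1 promote the change from progenitor to paraxial mesoderm, and Mesp factors act when this tissue is divided into somites. noto is required for the notochord, the axial mesoderm. eve1 marks the ventral and lateral margin, and cdx4 acts in posterior patterning through Hox genes.

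The values at 6 h after fertilization (6 h.p.f.) come from 1 scSLAM-seq library. Wild-type embryos had been injected with 4sUTP, a uridine analog, directly after fertilization, and embryos at the shield stage were pooled, dissociated and fixed in methanol. RNA made after the injection carries the analog, which is read as T-to-C changes, and a molecule with more than 1 such change was counted as labeled. The maternal RNA was measured by tomo-seq, in which serial sections of 3 individual one-cell stage embryos were sequenced separately along the animal-vegetal axis. The labels name no mutation, transgene or drug for these embryos, and no library without 4sUTP was analysed here. Since the cells came from pooled embryos in 1 library, they are not replicates, and differences between cells were described without a test.

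Cells were barcodes with at least 150 genes among the labeled and at least 150 among the unlabeled molecules. This left 6847 cells with a median of 2984 unique molecular identifiers (UMIs), and 39.6% of their UMIs were labeled. A further 23.7% of all UMIs lay outside cells. The one-cell embryos 1, 2 and 3 held 10215262, 12689394 and 31887460 counts.

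At 6 h.p.f., 8 of 8 genes were almost entirely newly made RNA. Together they had 19573 labeled and 2130 unlabeled UMIs, so that 90.2% were labeled. For each of the 8 genes, the 95% interval (exact Clopper-Pearson, which covers counting error only) lay above the library share. Of 7405 genes with at least 100 UMIs, 53.6% met the same rule, and their median labeled share was 48.4%. Passing the rule was thus common, whereas 12.2% of these genes had a labeled share above that of cdx4, the lowest of the 8.

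Of the T-box genes, tbxta had 3607 labeled and 324 unlabeled UMIs, a labeled share of 91.8% (95% interval 90.9 to 92.6). tbx16, the most abundant gene of the group, had 4954 and 674, a share of 88.02% (87.1 to 88.9). Of the helix-loop-helix genes, mespab had 3368 labeled and 208 unlabeled UMIs (94.2%, 93.4 to 94.9), the highest labeled share of the 8. Its relative mespaa was the rarest of the 8, with 1034 and 80 UMIs (92.8%, 91.1 to 94.3), and msgn1 had 1922 and 232 (89.2%, 87.8 to 90.5). Of the homeobox genes, noto had 1476 labeled and 142 unlabeled UMIs (91.2%, 89.7 to 92.6) and eve1 1296 and 128 (91.01%, 89.4 to 92.4). For cdx4 the values were 1916 and 342 (84.9%, 83.3 to 86.3). In this order only cdx4 and its next neighbour tbx16 had intervals that did not overlap, and each other pair of neighbours, from tbx16 up to mespab, could not be told apart at this depth.

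**Figure D1:**
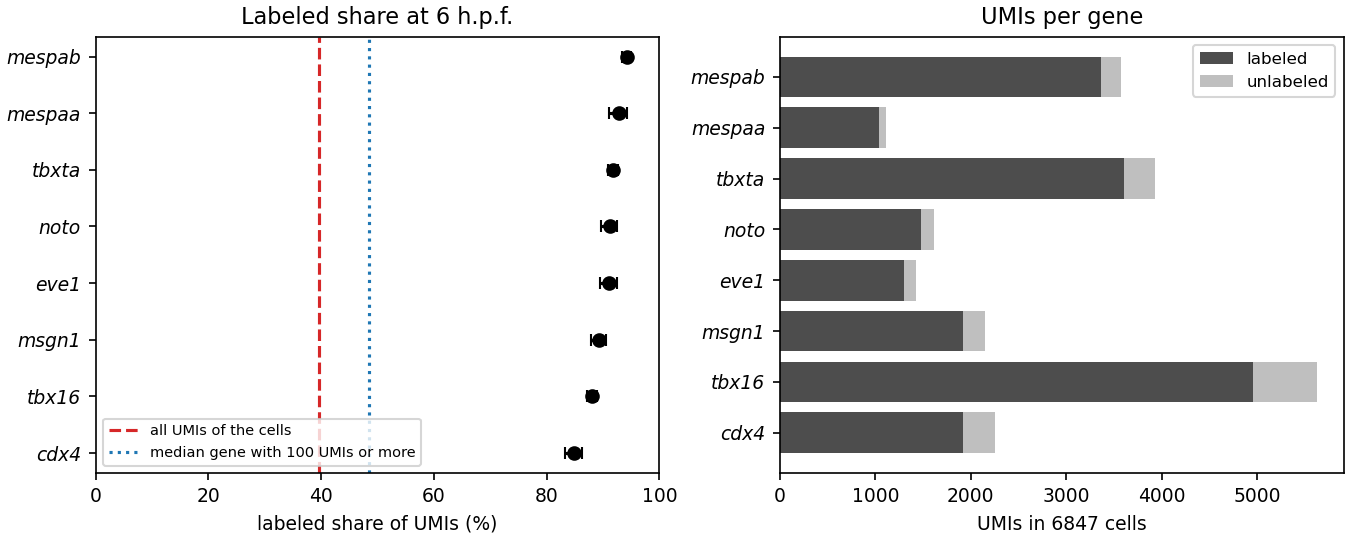
Left, labeled share of the UMIs of each gene in percent, with exact 95% intervals, against the share of all UMIs (dashed) and the median gene (dotted). Right, labeled and unlabeled UMIs of each gene. All 8 genes lie between 84.9% and 94.2%, far to the right of the library share of 39.6%.

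The few unlabeled UMIs lay mostly in the same cells as the labeled ones. For mespab, 75% of unlabeled UMIs were found in cells that also had a labeled mespab UMI, while those cells held 21.1% of all UMIs. For noto the values were 74.6% and 11.8%, for tbxta 71.3% and 30.04%, and for msgn1 71.1% and 15.1%. These unlabeled molecules therefore followed the labeled ones of the same gene from cell to cell. In tbx16 (65.4% against 45.99%), mespaa (62.5% against 9.40%) and cdx4 (61.7% against 20.1%) the share was also higher than that of all UMIs, and eve1 had the lowest value, 39.1% against 16.2%. For comparison, nanog, a maternally supplied factor with a labeled share of 15.97%, had 16.2% of its unlabeled UMIs in cells with a labeled one, and these cells held 11.4% of all UMIs. Other maternally supplied genes differed from it, with 49.3% against 34% for pou5f3, 4.79% against 1.57% for ddx4, and 59.6% against 0.266% for nanos3, a germ plasm gene seen in 2.82% of cells.

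Levels are given in CPM, the UMIs of a gene scaled to a common total of UMIs of the same cells. Each molecule gives 1 UMI at its 3′ end, so the values were not divided by gene length. Counting intervals of levels and ratios are exact 95% Poisson intervals. tbx16 was highest with 262 CPM, followed by tbxta with 183 and mespab with 167. cdx4 (105), msgn1 (100.4), noto (75.4), eve1 (66.4) and mespaa (51.9) followed. Of neighbours in this order, only cdx4 and msgn1 had overlapping counting intervals. Detection followed nearly the same order, with a UMI of tbx16 in 42.98% of cells, tbxta in 26.9%, mespab in 19.1%, cdx4 in 18.8%, eve1 in 14.8%, msgn1 in 13.9%, noto in 10.1% and mespaa in 8.54%. eve1 was thinly spread, with 1.40 UMIs per positive cell and at most 6, while mespab had 2.73 per positive cell, and noto reached 23 UMIs in 1 cell. When every cell was thinned to 1500 UMIs, which 5845 cells allowed and 1002 did not, these shares lay between 28.5% for tbx16 and 5.29% for mespaa.

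The closest relatives of the 8 genes were mostly rare. Of the T-box genes, tbx16l (tbx6-like) had 327 UMIs, 89.3% of them labeled, while tbx6 had 9 and tbxtb, the other Brachyury copy, 6. Eomesodermin a (eomesa), a maternally supplied T-box factor, had 94 UMIs of which only 29.8% were labeled. mespba had 153 UMIs (90.2% labeled) and mespbb 8. cdx1a had 31, and neither cdx1b nor evx2 had any. Reads that match several genes of such a family equally well cannot be assigned, so these levels are uncertain for close copies.

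The labeled shares of the 8 genes resembled those of other genes of the mesoderm program with at least 100 UMIs. Of 55 listed genes (signals, receptors, Notch and segmentation genes, and transcription factors of the margin), 52 matched 1 gene each and 38 of those had at least 100 UMIs. All 38 had a labeled share above that of the library, with a median of 89.3%, and 31 lay above cdx4. The shares ran from 74.5% for the FGF feedback phosphatase dusp6 to 94.3% for the Nodal antagonist lft1. Each of the 38 had its interval above the library share, as did 53.6% of the 7405 genes. Of listed genes just under the cutoff of 100 UMIs, ndr1 (99 UMIs) had a labeled share of 90.9%. eomesa, also listed, had 94 UMIs and a share of 29.8%, below the library share of 39.6%. Its interval (20.8 to 40.1) included the library share.

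To ask in which cells the genes were used, the cells were clustered on labeled RNA with the 8 genes left out, which gave 12 clusters. A cluster was named only where at least 3 markers from a list were raised, at least 1 was among its 10 leading genes, and its median depth was at least 994.7 UMIs, a cutoff set by the depth of all cells. A cluster of 940 cells was called non-axial mesoderm-like (12 of 13 markers raised, among its leading genes pcdh8 and aplnrb). Clusters of 290, 190, 1406 and 135 cells were called axial mesoderm-like (10 of 10, led by gsc), endoderm-like (8 of 8), neuroectoderm-like (6 of 9) and enveloping layer-like (9 of 9). The other 7 clusters stayed unnamed. Among them, 1 cluster of 380 cells had 5 of 9 enveloping layer markers raised and was unnamed for its low depth, a median of 729.5 UMIs. The enveloping layer is the outer epithelium of the embryo and a tissue that should lack mesoderm factors, so its cells were used for comparison.

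Levels in some unnamed clusters lay above those of these comparison cells. In the shallow cluster of 380 cells tbx16 was at 188 CPM, cdx4 at 138, mespab at 128 and eve1 at 94.1, against 34.6, 30.5, 34.6 and 12.5 in the named enveloping layer-like cells. In the cluster of 551 cells led by foxd3, mespab (24.1), msgn1 (9.77) and mespaa (3.45) were not told apart from the enveloping layer-like cells. These had 34.6, 16.6 and 6.92 CPM, and the counting intervals overlapped for each gene. The mespaa levels rest on 6 and 5 UMIs. Members also met in the same few enveloping layer-like cells, as each of the 5 cells with msgn1 also had mespab.

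msgn1, mespaa and mespab were concentrated in the non-axial mesoderm-like cells. These cells were 13.7% of all cells and held 80.6% of mespaa UMIs, 78.2% of msgn1 UMIs and 74.4% of mespab UMIs. mespab reached 810 CPM there (counting interval 780 to 842), against 216 in the next cluster and 34.6 in enveloping layer-like cells. msgn1 had 513 CPM (489 to 538), against 151 in endoderm-like and 16.6 in enveloping layer-like cells. For mespaa these levels were 273 (255.7 to 291.8), 48.3 in the next cluster, which had no name, and 6.92 in enveloping layer-like cells. The intervals of the highest and the next cluster did not overlap for any of the 3. A UMI of mespab was seen in 79.9% of the non-axial mesoderm-like cells (median 3308 UMIs per cell), of msgn1 in 66.4% and of mespaa in 44.8%. In the enveloping layer-like cells (median 3874 UMIs) these shares were 10.4%, 3.70% and 2.22%.

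tbx16 and tbxta were highest in the same cells but reached much further. In the non-axial mesoderm-like cells tbx16 had 667 CPM and tbxta 450, and 82.2% and 63.7% of cells had a UMI. These cells held only 38.9% of the tbx16 and 37.6% of the tbxta UMIs. tbx16 was at 464 CPM in endoderm-like and 342 in axial mesoderm-like cells, tbxta at 160 and 371. In neuroectoderm-like cells tbx16 was still at 151 and tbxta at 112, while in enveloping layer-like cells they had 34.6 and 29.1. Both genes were therefore higher in neuroectoderm-like than in enveloping layer-like cells, which had the lowest level of the 12 clusters. Outside cells tbx16 was at 230 CPM and tbxta at 190, above both of these clusters. A UMI was seen in 32.7% and 18.7% of neuroectoderm-like cells, against 11.1% and 12.6%, and for tbxta the intervals of these shares overlapped.

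noto was highest in a different cluster. It reached 703 CPM (652 to 756) in axial mesoderm-like cells and 250 in an unnamed cluster of 551 cells led by foxd3, foxb1a and admp. These clusters held 44.2% and 26.9% of its UMIs. In non-axial mesoderm-like cells noto was at 14 CPM, the lowest of the 12 clusters, and 3.83% of cells had a UMI. The enveloping layer-like cells had 31.8 CPM and 10.4%, so noto in non-axial mesoderm-like cells was not above the level of the comparison cells. eve1 behaved the other way, with 12.8 CPM in axial mesoderm-like cells and 10.9 in the cluster led by foxd3, close to the 12.5 of enveloping layer-like cells.

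eve1 and cdx4 had the smallest share of their UMIs in any 1 cluster. eve1 had 128 CPM in non-axial mesoderm-like, 109 in endoderm-like and 68.9 in neuroectoderm-like cells, and the first of these held 29.4% of its UMIs. The intervals of its 4 highest clusters overlapped from one neighbour to the next. cdx4 had 212 CPM in an unnamed cluster of 99 cells led by isg15, phlda3 and other genes that included the p53 regulator mdm2, and 180 in non-axial mesoderm-like cells, with overlapping intervals. It had 135 in neuroectoderm-like cells, which held 26% of its UMIs, about as much as the 26.2% in non-axial mesoderm-like cells. In endoderm-like and axial mesoderm-like cells it was at 48.1 and 41.3, near the 30.5 of enveloping layer-like cells.

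**Figure D2:**
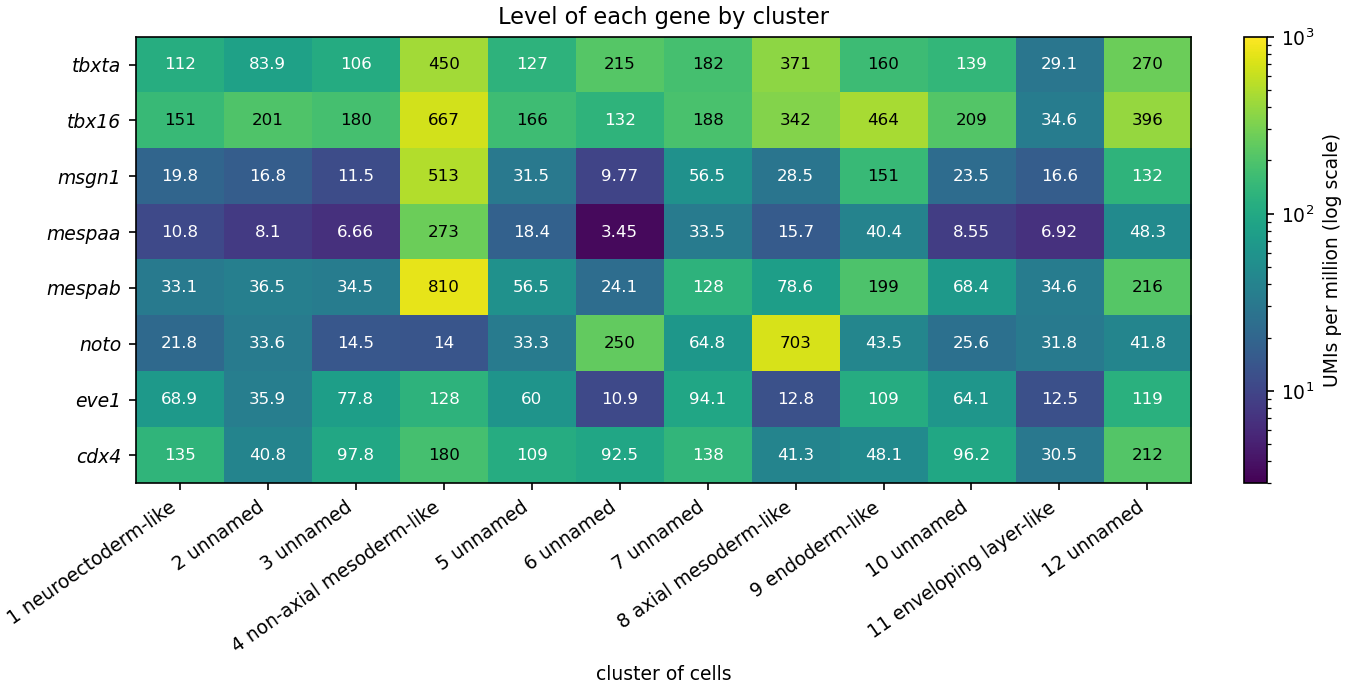
CPM of each gene (rows) in the 12 clusters of cells (columns), on a log colour scale with the value in each field. msgn1, mespaa and mespab are high in the non-axial mesoderm-like cluster (513, 273 and 810), noto in the axial mesoderm-like cluster (703), and tbxta in both. tbx16 is highest in the non-axial mesoderm-like cluster (667), followed by the endoderm-like (464), an unnamed (396) and the axial mesoderm-like cluster (342).

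The 8 genes were also found outside cells, from 43.1 CPM for mespaa to 230 for tbx16, against 51.9 and 262 in cells. tbxta was higher outside cells (190 against 183), and the other 7 were lower, mespab with 133 against 167 and eve1 with 47.95 against 66.4 among them. The depth of clusters also differed, from a median of 729.5 UMIs in the shallow cluster to 3874 in the enveloping layer-like cells. After thinning to 1500 UMIs the same clusters led in the share of cells with a UMI. mespab was seen in 64.5% of non-axial mesoderm-like cells and in 7.69% of enveloping layer-like cells, and noto in 40.6% of axial mesoderm-like and 1.94% of non-axial mesoderm-like cells.

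Across the 12 clusters, msgn1, mespaa and mespab had nearly one pattern. The Pearson correlations of log2(CPM + 10) were 0.98 for msgn1 with mespab and 0.97 for mespaa with each of the others. tbxta and tbx16 correlated at 0.84. noto correlated negatively with eve1 (-0.65), cdx4 (-0.33), mespaa (-0.25) and msgn1 (-0.24). These are descriptions over 12 points that share 1 library. Among 8171 genes detected in at least 1% of cells, the chemokine genes cxcl12b (0.92 with msgn1, 0.90 with mespaa and mespab) and cxcl12a (0.89 with tbx16) were among the 3 genes most like a member, as was ripply2 (0.89 with mespaa), a repressor of segmentation genes. tbx16 was most like celf1 (0.94), which encodes an RNA-binding protein. The dorsal organizer genes admp (0.90) and chrd (0.85), after arl4ab (0.91), were most like noto. eve1 was most like genes of the ventral BMP pathway, bambia (0.91), bmp7a (0.90) and vox (0.87). tbxta was most like si:dkeyp-2e4.3 (0.93) and ca9 (0.91), and cdx4 like txndc15 (0.90), proser1 (0.90) and gas1b (0.89).

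Many cells had several of the 8 genes. Of all cells, 35.5% had none, 64.5% at least 1 and 14.98% at least 4, and 4 cells had all 8. Among non-axial mesoderm-like cells 98.1% had at least 1 and 65.7% at least 4. In axial mesoderm-like cells these shares were 81.4% and 11.4%, and in enveloping layer-like cells 36.3% and 3.70%.

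For each of the 28 pairs, the number of cells with both genes was divided by the number that independent detection in all cells would give. This ratio was above 1 in 24 pairs. Among other genes detected in as many cells as the members, 98.8% of pairs were above 1, with a median ratio of 1.20, so that a ratio above 1 is common in cells of unequal depth. In cells thinned to 1500 UMIs, 23 of the 28 pairs were above 1, against 50.9% of pairs of other genes, whose median was then 1.00. The members also included high ratios, with 8 pairs above 2 over all UMIs and 13 after thinning, against 0.00925% and 0.00717% of pairs of other genes. These background shares are descriptions over genes of all functions.

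The highest ratios joined the helix-loop-helix genes. msgn1 and mespaa were seen together in 403 cells where 81.3 were expected, a ratio of 4.95 (counting interval 4.48 to 5.46), and of 6.00 after thinning. mespaa and mespab met in 448 cells against 112 expected (4.00, 4.98 after thinning), and msgn1 and mespab in 699 against 182 (3.83, 4.54 after thinning). Of the cells with mespaa, 76.6% also had mespab and 68.9% msgn1. eve1 and cdx4 were the only homeobox pair of this kind, in 470 cells against 190 (2.47, 2.61 after thinning). tbxta was above 1 with each of the other 7 genes in both forms, from 1.59 with tbx16 to 2.27 with mespaa over all UMIs.

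Over all cells, noto was found with mespaa, msgn1, mespab and eve1 less often than independent detection gives. It was seen with mespaa in 24 cells where 59.04 were expected (0.41, 0.26 to 0.60), and after thinning in 5 against 20.7 (0.24). For msgn1 the ratio was 0.60 (0.40 after thinning), for eve1 0.62 (0.46) and for mespab 0.64 (0.46). noto and tbxta were found together more often than independent detection gives, in 334 cells against 186 (1.79, 2.17 after thinning). For noto and cdx4 the direction depended on depth, with a ratio of 1.33 (1.14 to 1.54) over all UMIs and of 0.97 (0.71 to 1.30) after thinning. tbx16 and noto were at 1.21, and at 1.12 (0.93 to 1.34) after thinning.

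**Figure D3:**
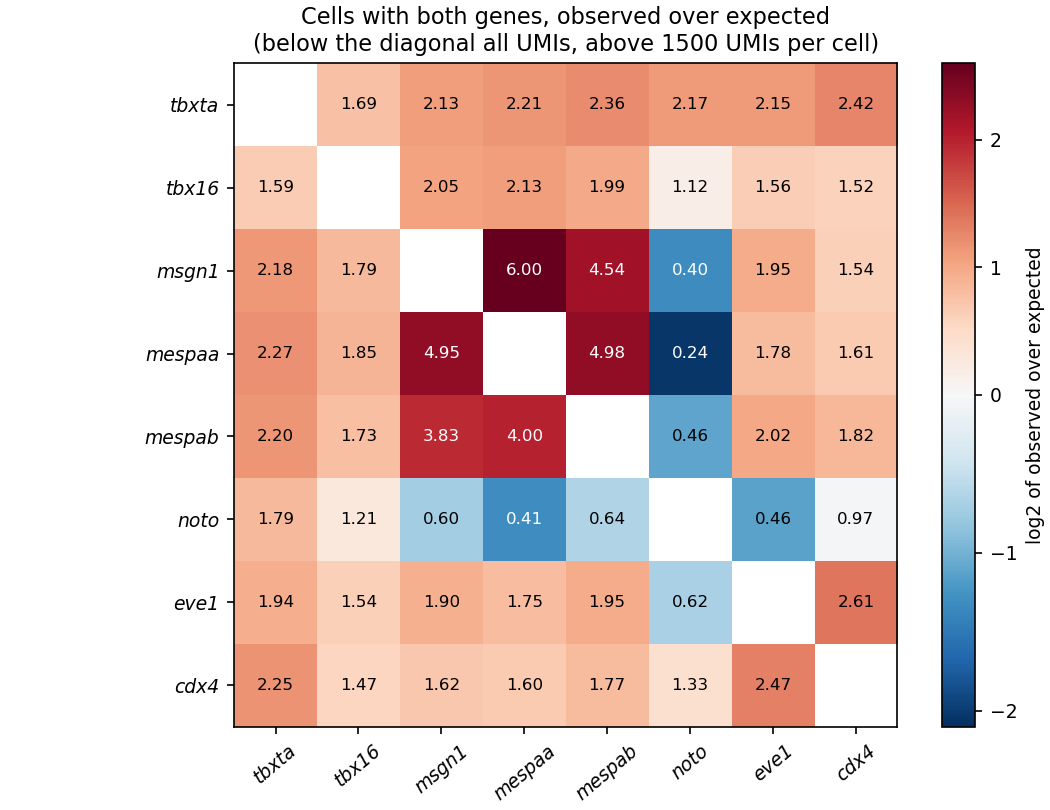
Observed over expected number of cells with both genes for the 28 pairs, with all UMIs below the diagonal and with 1500 UMIs per cell above it. The colour is the log2 of the ratio, and the value is printed. The block of msgn1, mespaa and mespab lies between 3.83 and 6.00, and noto is below 1 with each of these genes and with eve1.

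Within the non-axial mesoderm-like cells the ratios lay closer to 1. However, no ratio can exceed the number of cells over the cells with the commoner gene. This limit was lower there, as mespab was seen in 751 of 940 cells, against 1311 of 6847 over all cells. The sizes of the ratios are therefore not comparable between these sets of cells. In the non-axial mesoderm-like cells 21 of 28 pairs were above 1, with a median of 1.06, and 6 had counting intervals above 1. msgn1 and mespaa were at 1.22 (1.09 to 1.36), while eve1 and cdx4 (1.65, 1.40 to 1.94) and tbxta and cdx4 (1.36, 1.20 to 1.53) kept higher values. The highest ratio there was that of noto and cdx4, 1.70 (1.04 to 2.62), with 20 cells that had both. For the pairs of noto that were low over all cells, the ratios there were 0.93 with mespaa, 0.92 with msgn1, 0.87 with mespab and 1.29 with eve1. Each of these intervals included 1. In axial mesoderm-like cells tbxta and noto were at 1.59 (1.31 to 1.92), with 109 cells that had both. No pair had a counting interval below 1 within any named cluster, so the low noto ratios over all cells were not resolved within clusters. These Poisson intervals are too wide where most cells have a gene, as in the non-axial mesoderm-like cells. The numbers of intervals above or below 1 can therefore be too low there, and an interval that includes 1 does not show independence. In some other clusters, where most of the genes were seen in a smaller share of cells and this limit was higher, the ratios were further from 1. The median ratio was 1.72 in neuroectoderm-like cells, where 18 of 28 intervals lay above 1, and 3.11 in enveloping layer-like cells, where 11 did although few cells had a UMI. The ratios within clusters were not thinned.

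Detection of one gene also varied with the number of UMIs of another. msgn1 was seen in 4.57% of cells without mespab, in 30.8% of cells with 1 mespab UMI, in 54.8% of cells with 2 and in 76.7% of cells with 3 or more. mespab was seen in 13.8% of cells without mespaa and in 91.8% of cells with at least 3 mespaa UMIs. tbxta was seen in 15.01% of cells without tbx16 and in 70.8% of cells with at least 3 tbx16 UMIs. eve1 went the other way along noto, from 15.4% of cells without noto to 3.98% of the 176 cells with at least 3. mespab did not fall steadily along noto, with 19.9%, 13.3%, 5.88% and 13.1% of cells at 0, 1, 2 and at least 3 noto UMIs. The median depth of the cells was higher where the first gene had more UMIs, for example from 2902.5 to 3587.5 UMIs along mespab and from 2941 to 3835 along noto. The part of depth in these curves was not tested.

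**Figure D4:**
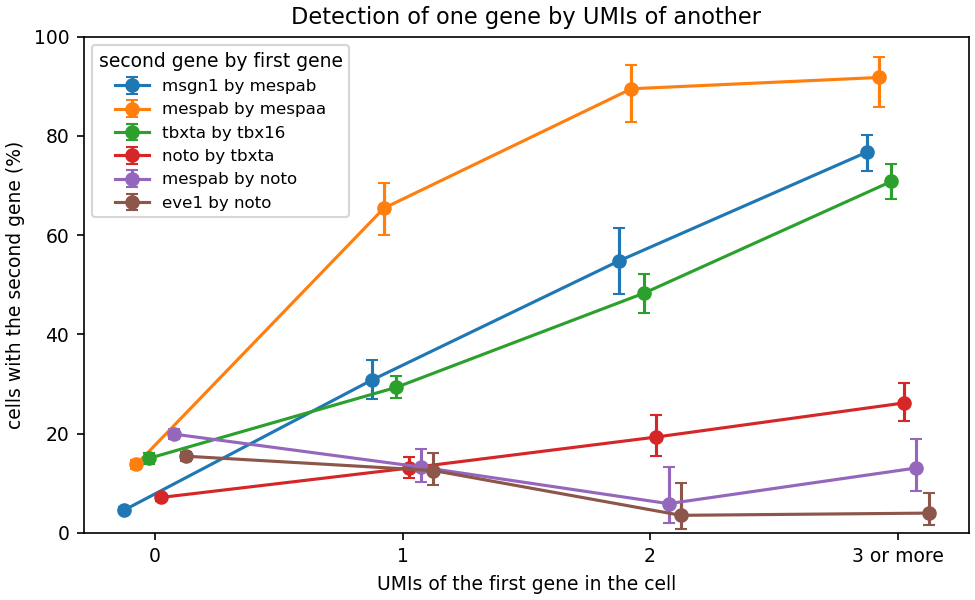
Share of cells with at least 1 UMI of a second gene, in percent with exact 95% intervals, for cells with 0, 1, 2 or at least 3 UMIs of a first gene. msgn1 goes with mespab from 4.57% to 76.7%, and eve1 with noto from 15.4% to 3.98%.

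In the one-cell embryos, these genes had few counts or none. The chromosomes below are those of the entry names, on GRCz10. Maternal RNA was counted as present when a gene had at least 3 counts in every embryo under an entry of its own. This held for 2 of the 7 genes that could be judged, mespaa and cdx4. Of 6669 genes with at least 100 UMIs at 6 h.p.f., 88.3% met the same rule, and of the 811 genes with at least the labeled share of cdx4, 51.5% did.

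mespaa (chromosome 7) had 9, 19 and 124 counts in embryos 1, 2 and 3, which are 0.881, 1.498 and 3.90 CPM. cdx4 (chromosome 14) had 5, 5 and 58 counts, or 0.490, 0.394 and 1.83 CPM. Both genes were highest in embryo 3, the deepest, in counts and in CPM. Embryo 3 had UMIs of 4 nt, which allow 256 per gene and section, and embryos 1 and 2 had UMIs of 6 nt, which allow 4096. mespaa and cdx4 were far from these limits, with at most 11.2 counts in a section. For scale, nanog had 4378 and 1763 CPM in embryos 1 and 2. In embryo 3 it had 747, from 10715 UMIs that the correction raised to 23821 counts, so that this value lies near the limit of the UMIs. dazl, a vegetal germ plasm gene, had between 57.2 and 222 CPM.

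The other genes were at or near 0. tbxta (chromosome 19) had no count in embryos 1 and 2 and 9 in embryo 3, which is 0.283 CPM (counting interval 0.129 to 0.536). Embryo 3 was the deepest, and the part of depth in the lack of tbxta counts in the other embryos was not tested. tbx16 (chromosome 8) and noto (chromosome 13) had no count in embryos 1 and 2 and 2 each in embryo 3, and mespab (chromosome 25) had 1, 0 and 1. eve1 was listed in none of the 3 embryos. A count of 0 does not exclude a low level. The 3 counts that the rule asks for are 0.294, 0.236 and 0.0941 CPM in embryos 1, 2 and 3. Of the genes with at least the labeled share of cdx4, 20.1% had under 3 counts over all embryos, as tbx16, mespab, noto and eve1 did. eve1 thus had no maternal count and still 128 unlabeled UMIs at 6 h.p.f., 8.99% of its total, against 7.18% for mespaa, which had maternal counts in each embryo. The labeled shares of these genes had overlapping intervals. cdx4, the other gene with maternal counts in each embryo, had the highest unlabeled share of the 8, 15.1%.

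msgn1 could not be judged. Its only entry joined 8 gene identifiers, with 843, 2625 and 20731 counts, which cannot be divided between them. At 6 h.p.f. another of the 8 identifiers, ENSDARG00000045914, had 96.6% of the unlabeled UMIs of these genes and msgn1 3.04%. When the vegetal and animal regions were compared in edgeR, the joined entry did not pass the quasi-likelihood test (log2 difference -0.09, SE 0.15, Benjamini-Hochberg adjusted p = 0.677), and 31.6% of 9662 entries did. This fit used region totals, under which the median log2 difference of all entries was -0.29, and under other scalings the difference of the joined entry was above 0 without passing the test.

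Most mespaa counts lay at the animal side. Between 68 and 74 of 96 sections per embryo were kept and cut into 3 regions of equal section number. The animal region had 8, 15 and 100 mespaa counts in embryos 1, 2 and 3 and the vegetal region 1, 0 and 1. Relative to all RNA of a region, mespaa had 1.43, 2.34 and 5.12 CPM in the animal regions (2.96 ± 1.92, SD, n = 3) and 0.571, 0 and 0.274 in the vegetal regions (0.282 ± 0.286), without overlap. The animal level was higher in 3 of 3 embryos, and the exact two-sided paired permutation test gave p = 0.25, the smallest that 3 embryos allow. The counts were too low to pass the filter of the edgeR fit. The animal region held 88.9%, 83.3% and 80.6% of the mespaa counts in the kept sections, against 55.2%, 50.9% and 61.6% of all counts. For cdx4 the animal and vegetal counts were 5 and 0, 1 and 4, and 40 and 4 in the 3 embryos, and the levels overlapped (exact two-sided paired permutation test, p = 1.00).

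**Figure D5:**
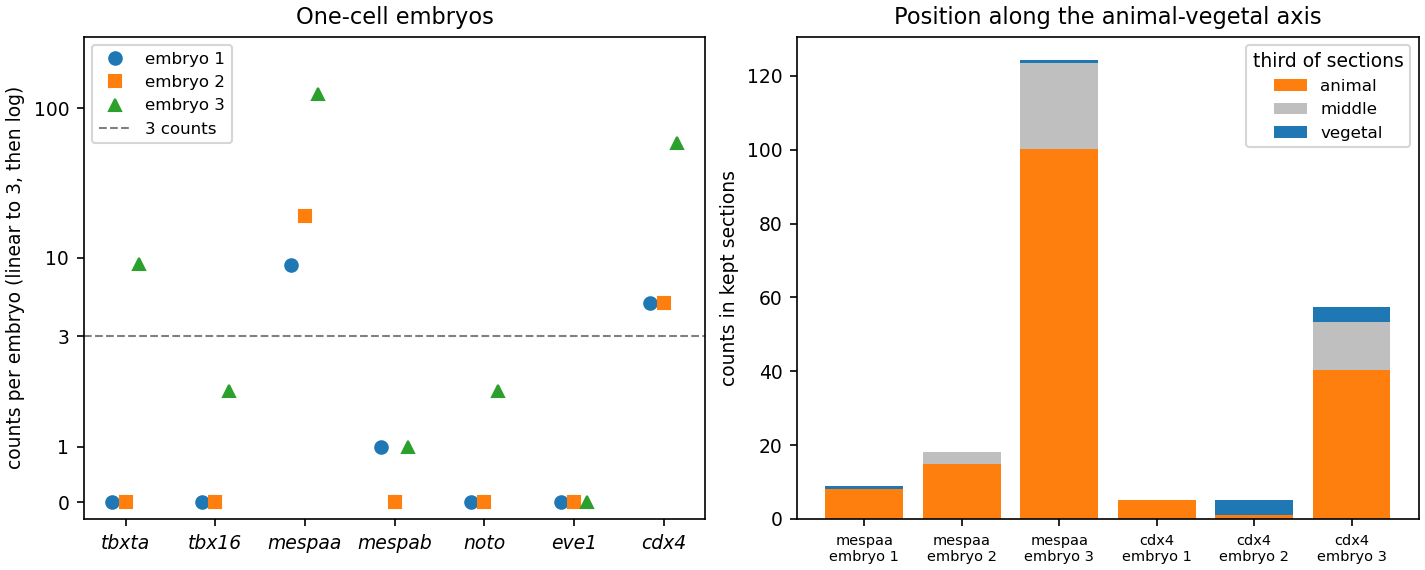
Left, counts of 7 genes in each of 3 one-cell embryos, on an axis that is linear up to 3 counts and logarithmic above, with 3 counts dashed. Right, counts of mespaa and cdx4 in the animal, middle and vegetal part of the kept sections. Only mespaa and cdx4 have at least 3 counts in each embryo, and the animal part holds 80.6% to 88.9% of the mespaa counts.

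Of the other genes of the mesoderm program with at least 100 UMIs at 6 h.p.f., 36 could be judged in the one-cell embryos and 9 met the rule for maternal RNA. The same rule was met by 88.3% of the 6669 genes, and by 51.5% of the 811 genes with at least the labeled share of cdx4. The 36 genes were not chosen by labeled share, and some, such as snai1a (78.5%) and etv5b (82.5%), lay below cdx4. Among the 9, snai1a, a repressor active in migrating mesoderm, had 387, 530 and 4227 counts and the FGF target etv5b 215, 395 and 2990, while the organizer gene gsc had 16, 7 and 186. vox, a ventral repressor, had 0, 1 and 0. The related gene eomesa had 21981, 18490 and 7018 counts. In contrast, tbxta, tbx16 and the other listed T-box genes tbxtb, tbx16l and tbx6 had at most 14 counts in any embryo. Further T-box genes were not examined here.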

How the data were processed

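For 3 zebrafish one-cell embryos the authors aligned tomo-seq reads to GRCz10 and deposited expected counts per section, in which UMI counts had been raised for UMIs drawn more than once. The scSLAM-seq reads were aligned to GRCz11, and the authors deposited counts of UMIs in a labeled and an unlabeled matrix. The processing notes name STAR 2.5.3a, Cell Ranger 3.0.2 and STARsolo 2.7.0f. The oocyte tables of X. laevis and X. tropicalis were not used here.

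The 8 genes, the gene and marker lists, tests and alternatives were chosen with earlier results of these data known. Genes named are the 8, their listed relatives and pathway genes, and for each of the 8 some of the 3 genes most like it in log2(CPM + 10) over the clusters. Genes were matched by identifier. No sequence is shown.

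Cells were clustered on labeled RNA without the 8 genes (scanpy 1.11.5, leidenalg 0.10.2, resolution 1). Some markers may have been picked on these cells by the study. Scrublet marked 1 cell as a doublet and so did not work here, and no doublet was removed.

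A section was used when its total reached 10% of the median section, which replaced the spike-in rule of the study, and spike-ins were left out of totals. Expected counts were summed by region, rounded and compared in edgeR 4.0.16 (glmQLFit, filterByExpr, region totals as library sizes, Benjamini-Hochberg adjusted p under 0.05) with the embryo as a block, since both regions come from 1 animal. The deviations of the regions of an embryo correlated at 0.914, 0.858 and 0.943. The fit was tested on data simulated from the more abundant entries alone, so that test does not cover mespaa or cdx4. DESeq2 1.42.0 was an alternative.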

Additional observations from a re-analysis of the deposited data

How the results depend on the processing

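Under stricter and looser cell rules (300 genes in each matrix, or 150 in the unlabeled matrix alone), without the 5% of cells with the most UMIs, and without the 5% with the highest doublet score (an alternative added after seeing the data), all 8 labeled shares stayed above the library share and 24 of 28 pairs above 1. The doublet score came from Scrublet, which did not work here, so its alternative cannot show whether doublets matter. With labeled UMIs alone 24 pairs were above 1, and after thinning 23. The noto and cdx4 ratio turned from 1.33 to 0.968 after thinning, which removes the difference in depth between cells. At resolution 0.6 the 290 axial mesoderm-like cells were grouped with 282 of the 551 cells of the cluster led by foxd3, and noto was at 558 CPM in that class of 575 cells. Of the 190 endoderm-like cells, 186 were grouped with 929 of the 940 non-axial mesoderm-like cells, and no class was named endoderm-like. In this joint class of 1149 cells mespab was at 709 CPM, msgn1 at 456 and mespaa at 235. Comparisons with endoderm-like cells thus hold for resolution 1 alone.

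The count of 2 genes with maternal RNA was the same in the kept sections, with UMI counts before correction and without each embryo in turn (2 to 2). These alternatives could hardly lower it. The kept sections held 99.2% to 99.4% of counts, the correction raised mespaa in embryo 3 only from 123 to 124, and leaving out an embryo cannot lower the count. It fell to 0 when 10 counts were asked of every embryo. Of 9662 entries, 3054 differed between the vegetal and animal regions in edgeR, 1856 with TMM factors and 1048 with DESeq2. Without each embryo in turn there were 1466 to 2493, the lowest without embryo 3. Without the replicate block edgeR gave 0 (130 at an unadjusted p under 0.05). The joined entry with msgn1 moved from -0.09 to 0.19 with TMM and 0.21 with DESeq2 (adjusted p 0.439 and 0.481), and over all its alternatives the adjusted p stayed between 0.439 and 1.00. mespaa entered only 2 of these fits, with a log2 difference of -3.71 without the filter (adjusted p = 3.00e-05) and of -4.56 without embryo 1 (5.34e-06). Without the filter 2908 of 21079 entries passed. The fit without embryo 1 rests on 2 embryos, with 0 and 1 vegetal mespaa counts. In the main fit 78.1% of entries had a log2 difference below 0, so a negative sign was common. cdx4 had -0.26 without the filter (0.897).

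Counts of 5 in embryos 1 and 2 limit what can be said of cdx4, and 1 library limits every comparison between cells to counting error.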
